A study of Mus musculus with 401 samples.

Results

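Oocytes of mice at 4 months were compared with oocytes of mice at 14 months in the second of 2 sets of single-oocyte libraries. Every library of that set whose name gave an oocyte and a mouse of 1 of these ages was used, which gave 39 oocytes of 8 mice at 4 months and 16 oocytes of 5 mice at 14 months, 55 of the 127 oocyte libraries of the second set and of the 401 oocyte and cumulus libraries of the series. All mice were B6D2F1 females, a cross of C57BL/6 and DBA/2, fed ad libitum (AL) and treated for hyperovulation with eCG or CARD HyperOva, a mixture of eCG and inhibin antiserum. Which mouse received which agent is not given in the sources used here. Oocytes at the germinal vesicle stage were taken from fully grown follicles as complexes with their cumulus cells, and the RNA of each oocyte was profiled on its own by RamDA-seq, a full-length total RNA method.

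A fully grown oocyte at the germinal vesicle stage is arrested in meiotic prophase and is largely silent in transcription. It lives on RNA that it stored during growth, so its transcriptome changes slowly and mostly through storage, translation and decay. It is joined to its cumulus cells, somatic cells of the granulosa lineage, by thin processes that cross the zona pellucida and end on the oocyte in gap junctions. Egg aneuploidy rises with maternal age in mice as in women, and the loss of chromosomal cohesin is the best known molecular sign of it.

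The oocyte libraries bore the plate codes B1 and B2 in their names, with 23 oocytes of 4 mice and 16 oocytes of 4 mice at 4 months, and 8 oocytes of 3 mice and 8 oocytes of 2 mice at 14 months. Plate was a term in the test. The number that ends the code of each complex was 12 for all oocytes at 14 months on both plates and 3, 4, 6, 7 or 10 for those at 4 months, so whatever this number marks cannot be told apart from age. Library totals ran from 1238441 to 2409422 counts at 4 months (median 2047067) and from 1985560 to 2583456 at 14 months (median 2270752), with a median of 18062 and 18496 genes detected. All 55 libraries had the profile of oocytes, with 13 oocyte markers (Zp1, Zp2, Zp3, Gdf9, Bmp15 and others) at a summed median of 23780 CPM (counts scaled to a common library total) at 4 months and 23420 CPM at 14 months, and 0 of the 55 was closer to cumulus cells than to the other oocytes.

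The counts of the oocytes of each mouse were summed, so that the mouse was the replicate, and the 23094 genes detected in 5 or more of the 55 oocytes were tested (edgeR quasi-likelihood test with plate as a term, Benjamini-Hochberg adjusted p under 0.05). The test called 68 differentially expressed genes (DEGs), 0.294% of the genes tested, of which 44 were higher at 14 months (0.191%) and 24 lower (0.104%). An unadjusted p under 0.05 was found for 2436 genes (10.5%). Most differences were small. Of the 68 DEGs, 26 differed more than 2-fold and 33 less than 1.5-fold, with a median absolute log2 fold change of 0.65, and the median over all genes tested was 0.00104. The values of the mice did not overlap between the ages for 30 of the 68 DEGs, against 146 of all genes tested (0.632%). All 68 DEGs had the same direction on plate B1 alone and on plate B2 alone, with an unadjusted p under 0.05 for 67 and 64 of them. They were chosen on these same mice, so this is a description and no independent check. On its own, plate B1 called 41 genes, 14 of them among the 68. Plate B2 alone, with 4 and 2 mice, gave 0 DEGs (1943 genes at an unadjusted p under 0.05). Fitted to single oocytes, the unit of the study, the same model called 181 genes, 57 of them among the 68.

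The number of DEGs depended on which mice were in the fit. It ranged from 25 without mouse 14mo40 to 69 without mouse 14mo41. It was also more than 1.5 times smaller than 68 without 4mo25 (26), 4mo4 (31), 4mo5 (35), 14mo38 (36), 4mo26 (40), 14mo39 (42) or 14mo37 (43). Of the 68 DEGs, 21 passed with any 1 of the 13 mice left out, among them Sirpb1a, Sirpb1b, Sirpb1c, Nyap2, Irf8, Tceanc, Reps2, Ogt, Ube2d3, Cyp39a1, Ldha, Inha, Inhbb, Syncrip, Hsd3b1 and AY036118. Of the other DEGs named below, Hist1h1a was lost without 1 of the mice, Xlr3c without 3, Map3k21 without 4, Hsd17b1 without 5, Grem1 and Hist1h3f without 6, Mlst8 without 7, Cttnbp2 and Fst without 8, Cldn34d, Henmt1, Hspa8 and Jun without 9, Nhs, Scd2 and Xlr3b without 10, Commd10, Nectin2, Pde7b and Syde1 without 11 and Tlr3 without 12, all in the same direction throughout. With the cumulus marker level of each mouse, described below, as a further term, which does not overlap between the ages and so is close to age itself, 0 genes were called and 1616 had an unadjusted p under 0.05, among them 56 of the 68 DEGs, and 67 of the 68 had the same direction.

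The DEG with the smallest p was Sirpb1c, which belongs with its neighbours Sirpb1a and Sirpb1b to the signal-regulatory proteins, cell surface receptors of the immunoglobulin family best known from myeloid cells. The genes lie in a row on the minus strand of chromosome 3 (GRCm38), Sirpb1a at chr3:15371653-15426520, Sirpb1b at chr3:15495751-15575065 and Sirpb1c at chr3:15795145-15848528. The 250 bases upstream of each RefSeq start (GRCm38.p6) are shown because the 3 genes are neighbours that fell together. Capitals mark the longest run found in all 3, of 26 bases, on the strand of the gene, and the regions are chr3:15426428-15426677, chr3:15575066-15575315 and chr3:15848488-15848737.
Sirpb1a: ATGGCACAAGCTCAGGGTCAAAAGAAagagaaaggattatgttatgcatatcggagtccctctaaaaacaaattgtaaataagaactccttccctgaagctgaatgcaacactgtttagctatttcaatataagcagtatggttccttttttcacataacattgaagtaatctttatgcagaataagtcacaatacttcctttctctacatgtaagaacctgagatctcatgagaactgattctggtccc
Sirpb1b: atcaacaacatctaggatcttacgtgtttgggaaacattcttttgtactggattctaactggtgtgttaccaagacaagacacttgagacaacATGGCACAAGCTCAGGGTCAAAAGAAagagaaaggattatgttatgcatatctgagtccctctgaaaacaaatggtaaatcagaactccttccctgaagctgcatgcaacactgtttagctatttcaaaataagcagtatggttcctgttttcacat
Sirpb1c: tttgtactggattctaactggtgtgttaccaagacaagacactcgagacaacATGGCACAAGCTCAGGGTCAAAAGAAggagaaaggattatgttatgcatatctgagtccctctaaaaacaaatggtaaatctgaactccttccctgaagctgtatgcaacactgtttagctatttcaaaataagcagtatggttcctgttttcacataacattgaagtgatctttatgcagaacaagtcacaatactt
Of the stretches of 20 bases in the Sirpb1b region, 39.8% also stood in that of Sirpb1c and 17.7% in that of Sirpb1a, while Sirpb1a and Sirpb1c shared 9.52%. The run starts at base 1 of the Sirpb1a region, 94 of Sirpb1b and 53 of Sirpb1c, so the 3 windows are shifted against each other. The shares hold for these windows and not for aligned sequence, and the run may be cut at the edge of the Sirpb1a region. The Sirpb1a and Sirpb1c regions also reach into the gene coordinates given above.

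Below, the mice at 14 months are given in the order 14mo37, 14mo38 and 14mo39 (plate B1), then 14mo40 and 14mo41 (plate B2), as TMM-normalized CPM in the summed oocytes of the mouse. Sirpb1c stood at 1.78, 2.75, 1.59, 0.858 and 3.57 CPM at 14 months, and at 4 months between 5.83 and 8.07 CPM with a median of 7.37. Every mouse at 14 months was thus below every mouse at 4 months. The means were 2.11 ± 1.06 CPM (SD, n = 5) and 7.22 ± 0.79 CPM (SD, n = 8), a log2 fold change of -1.78 ± 0.21 (SE) with an adjusted p of 0.000879 (edgeR). Sirpb1b and Sirpb1a, named after their values were seen, had log2 fold changes of -1.43 ± 0.18 and -1.24 ± 0.18 (SE) with adjusted p of 0.0014 and 0.00388 (edgeR), again without overlap between the ages. Counts of the 3 genes were not whole in 81.8% to 88.9% of the oocytes, since reads that fit several copies were shared between them, so the fall belongs to the cluster and its split among the copies is uncertain. In the 56 cumulus libraries of these ages, the 3 genes together had 1 count. Levels at 9 months lay between those at 4 and 14 months, with a Sirpb1c mean of 3.51 CPM, and the mean at 2 months was 9.2 CPM.

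Nyap2, which encodes a neuronal adaptor of phosphoinositide 3-kinase, was also lower in every mouse at 14 months. It stood at 9.12, 8.24, 11.3, 8.68 and 10.7 CPM at 14 months, and between 15.5 and 25.2 CPM at 4 months with a median of 20.4. The log2 fold change was -1.03 ± 0.12 (SE), with an adjusted p of 0.000879 (edgeR) and no overlap between the ages. Unlike the Sirpb1 genes, Nyap2 had a mean of 19.5 CPM at 9 months, close to the 19.6 CPM at 4 months.

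Irf8, a transcription factor of the interferon regulatory family that directs myeloid development, stood at 11.1, 12.7, 10.2, 9.97 and 9.52 CPM at 14 months, and between 13.9 and 20.5 CPM at 4 months with a median of 17.4. All mice at 14 months were lower, with a log2 fold change of -0.73 ± 0.10 (SE) and an adjusted p of 0.00377 (edgeR). The mean at 9 months was 11.1 CPM, close to the 10.7 CPM at 14 months. Of 12 markers of blood, immune and endothelial cells, 3 had enough counts to be tested and 0 were called, the summed level ranged from 53.7 to 104.6 CPM at 4 months and from 69.5 to 95.2 CPM at 14 months, most of it Pecam1 with means of 72.9 and 72.1 CPM, and Adgre1, C1qa, Hbb-bs and Hbb-bt had no count in any of the 55 oocytes. Cd68, a marker of macrophages, had means of 1.2 and 0.728 CPM (log2 fold change -0.61, unadjusted p 0.19) and the endothelial Kdr had means of 4.99 and 6.88 CPM (0.44, unadjusted p 0.0187). The part of such cells in the results was not tested.

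The kinase gene Map3k21 stood at 18.7, 18, 13.1, 21.6 and 30.9 CPM at 14 months, against 24.9 to 43.4 CPM at 4 months with a median of 33.2. Mouse 14mo41 lay within the range at 4 months and the other 4 below it, and the log2 fold change was -0.64 ± 0.12 (SE) with an adjusted p of 0.0264 (edgeR). Cttnbp2, which encodes a cortactin-binding protein, stood at 6.23, 9.93, 9.06, 10.1 and 7.14 CPM, all below the 11.4 to 18.8 CPM at 4 months, with a log2 fold change of -0.66 and an adjusted p of 0.0451 (edgeR). The claudin-like Cldn34d on chromosome X had a log2 fold change of -1.01 and an adjusted p of 0.0386, with values at 14 months that ran from 1.36 to 7.35 CPM and overlapped the lowest mice at 4 months. These genes were nearly absent from cumulus cells, with 28 counts for Map3k21, 14 for Cttnbp2, 15 for Nyap2, 18 for Irf8 and 0 for Cldn34d over the 56 cumulus libraries.

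Other genes fell by less than 1.5-fold. Henmt1, the methyltransferase that caps piRNAs at their end, fell from a mean of 158.9 to 109 CPM with an adjusted p of 0.0461 (edgeR), and mouse 14mo39 at 145.9 CPM lay within the range at 4 months. Mlst8, a subunit of both mTOR complexes, fell from 11.2 to 7.5 CPM without overlap between the ages (log2 fold change -0.55, adjusted p 0.0354). Nectin2, an adhesion receptor, fell from 12.1 to 8.97 CPM without overlap (log2 fold change -0.43, adjusted p 0.0461). Commd10, a COMM domain protein, fell from 16.3 to 11.4 CPM (log2 fold change -0.56, adjusted p 0.0461), and 2 further DEGs were histones. Hist1h3f, a replication-dependent histone H3 gene, stood at 6.9, 7.4, 7.93, 6.65 and 6.92 CPM at 14 months, all below the 8.87 to 13.2 CPM at 4 months, and the linker histone gene Hist1h1a fell from 86.2 to 64.8 CPM with an adjusted p of 0.0207 (edgeR).

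**Figure D1:**
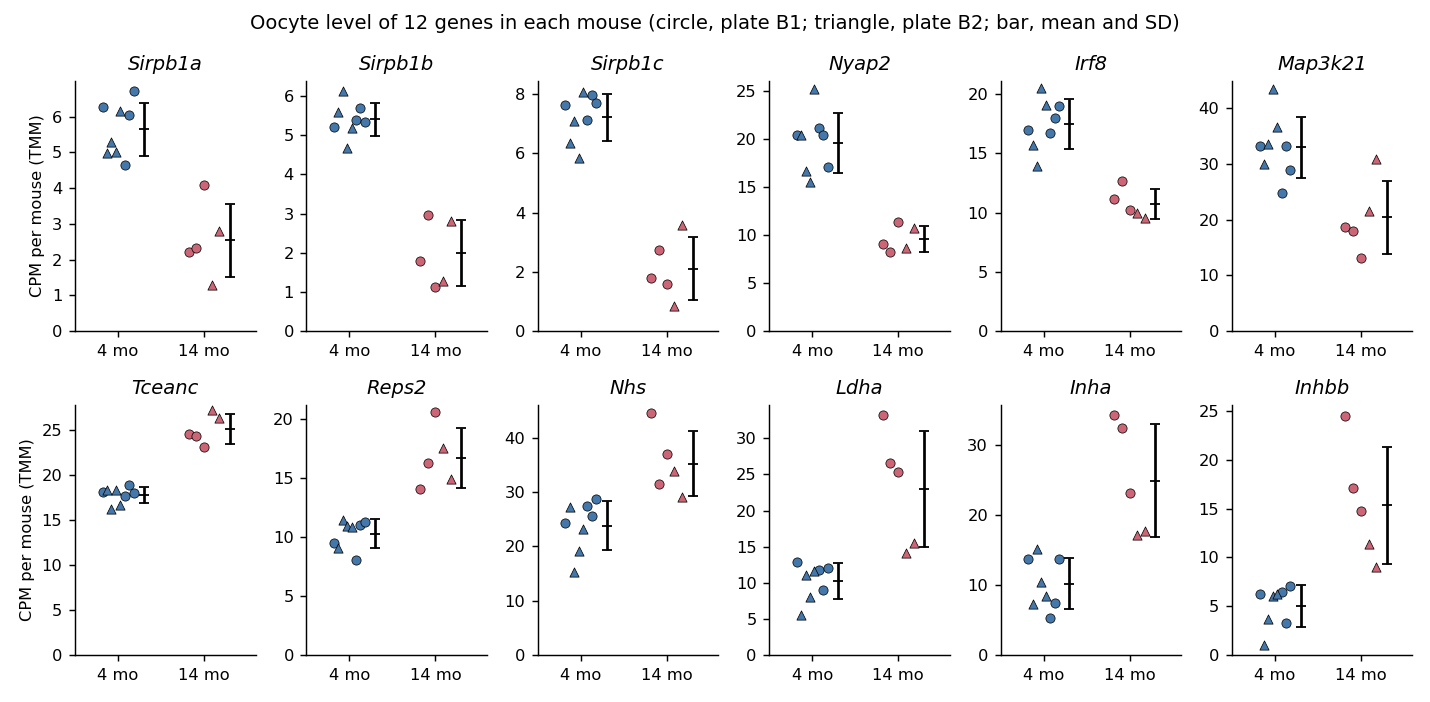
Oocyte level of 12 genes (y axis, TMM-normalized CPM) in each of the 8 mice at 4 months and 5 mice at 14 months (x axis), with circles for plate B1, triangles for plate B2 and bars for the mean and SD over mice. The ages do not overlap for 11 of the 12 genes, and for Map3k21 mouse 14mo41 at 30.9 CPM lies within the range at 4 months.

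The DEGs that rose at 14 months are described by the ratio of their level in cumulus cells to that in oocytes. Of the 68 DEGs, 21 had a cumulus level at least 10 times the oocyte level, and all 21 were higher at 14 months. They were 0.75% of the 2800 genes of this kind, whose median log2 fold change was 0.151. Ldha, the lactate dehydrogenase subunit of glycolytic cells, stood at 33.3, 26.6, 25.4, 14.2 and 15.5 CPM at 14 months, against 5.48 to 12.8 CPM at 4 months with a median of 11.3. The ages did not overlap, the mice of plate B1 were the higher ones, and the log2 fold change was 1.07 ± 0.15 (SE) with an adjusted p of 0.0027 (edgeR). Inha, the alpha subunit of inhibin, stood at 34.3, 32.3, 23.1, 17.2 and 17.6 CPM against 5.27 to 15.2 CPM (median 9.41), a log2 fold change of 1.19 ± 0.20 (SE) with an adjusted p of 0.00992 (edgeR). Inhbb, the beta B subunit of inhibin and activin, stood at 24.5, 17.1, 14.7, 11.4 and 8.98 CPM against 0.996 to 7.12 CPM (median 6.14), a log2 fold change of 1.51 ± 0.22 (SE) with an adjusted p of 0.00414 (edgeR). Fst, which encodes the activin-binding follistatin, and Grem1, a BMP antagonist that cumulus cells make in response to the oocyte, had log2 fold changes of 1.61 and 1.46 with adjusted p of 0.0365 and 0.0265. Hsd17b1, which makes estradiol in granulosa cells, the desaturase gene Scd2 and Syncrip, an RNA-binding protein, had log2 fold changes of 1.01, 1.29 and 1.16 with adjusted p of 0.0311, 0.0461 and 0.00531.

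For all of these genes the oocyte level was a small part of the cumulus level. The rise in the oocyte was 0.213% to 9.04% of the level in the cumulus cells of the same mice over the 21 genes, with a median of 0.554%, and it was 0.579% for Ldha, 0.428% for Inha and 9.04% for Grem1. The summed level of 15 cumulus markers in an oocyte, as a percent of the median cumulus library, rose with it. It averaged 0.696% ± 0.0796 (SD, n = 8 mice) at 4 months and 0.929% ± 0.111 (SD, n = 5 mice) at 14 months, the highest mouse at 4 months at 0.799% lay below the lowest mouse at 14 months at 0.835%, and the difference had p = 0.00155 (two-sided exact permutation test over mice) and p = 0.0019 when mice were permuted within plates. In summed CPM the 15 markers ranged over single oocytes from 77.5 to 164.7 CPM at 4 months and from 101.6 to 237.7 CPM at 14 months, 0 of the 15 was at 0 in all oocytes, and 3 were called (Inha, Hsd17b1 and Fst). These 3 are among the DEGs above, and the markers were chosen with earlier results of these data known. The p of the summed level is thus not separate from the rise of these DEGs. Of the 15, 12 lay above 0 and 3 below, and 6 were higher and 1 lower at an unadjusted p under 0.05. The lower one was Slc38a3, with a mean of only 0.12 CPM (unadjusted p 0.0109), and Amh had means of 1.17 and 1.06 CPM at 4 and 14 months. The median log2 fold change of the 15 was 0.67, and it was 0.212 on plate B2 alone. With the cumulus marker level of the mouse as a further term, which does not overlap between the ages and of which Inha is itself a part, Inha and Grem1 had log2 fold changes of 0.23 and 0.82 (unadjusted p 0.335 and 0.0776), Ldha 0.51 (unadjusted p 0.0238) and Scd2 -0.02. Cumulus RNA carried over with an oocyte and RNA of these genes within the oocyte cannot be told apart in these libraries.

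**Figure D2:**
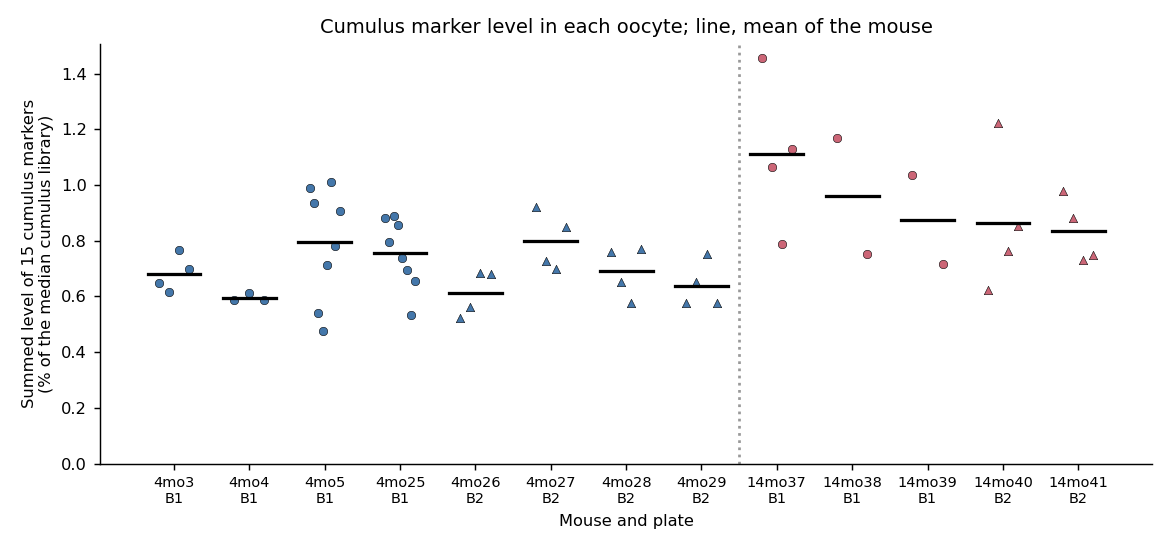
Summed level of 15 cumulus markers in each oocyte (y axis, percent of the median cumulus library) by mouse and plate (x axis), with the oocytes as points and the mean of each mouse as a line. Mouse means run from 0.596% to 0.799% at 4 months and from 0.835% to 1.11% at 14 months, while single oocytes overlap between the ages.

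Of 8 theca and luteal markers 6 were tested and 1 was called, Hsd3b1, an enzyme of progesterone synthesis, at 2.45, 4.65, 5.21, 2.47 and 1.84 CPM at 14 months against 0.241 to 1.57 CPM at 4 months (log2 fold change 1.69, adjusted p 0.00531). Of the 6, 3 lay above 0 and 3 below, with the lowest log2 fold change at -0.63, and Hsd3b1 alone had an unadjusted p under 0.05. The summed level of these markers had a median of 2.74 CPM at 4 months and 4.83 CPM at 14 months, of which Hsd3b1 had means of 0.868 and 3.32 CPM, and their part in the results was not tested. Of 16 immediate early genes 1 was called, Jun, at 6.01, 6.34, 0.453, 2.79 and 1.51 CPM at 14 months against 0.583 to 1.84 CPM at 4 months, so that mice 14mo39 and 14mo41 overlapped the younger mice. Fos and Fosb had log2 fold changes of 1.37 and 0.64 with adjusted p of 0.0563 and 0.115, and Dusp1 and Jund of -0.17 and -0.31 with adjusted p of 0.176 and 0.446. Of the 16 genes, 8 lay above and 8 below 0.

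**Figure D3:**
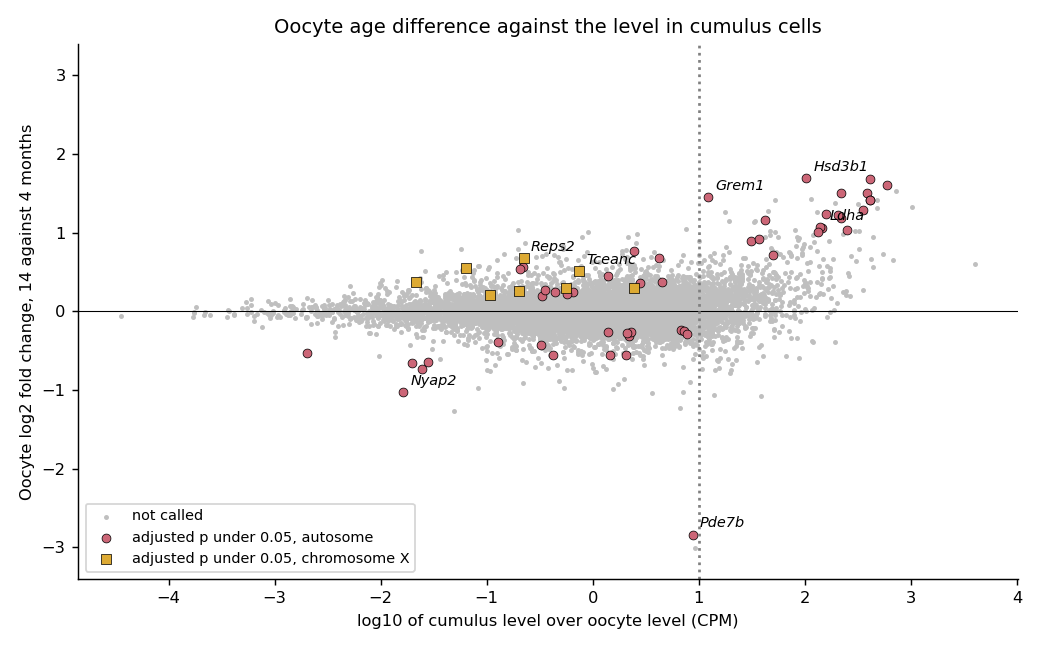
Oocyte log2 fold change of 14 against 4 months (y axis) against the log10 of the cumulus level over the oocyte level (x axis) for 13181 genes of at least 1 CPM in oocytes and above 0 in cumulus cells, with the 58 DEGs among them in red, or in yellow on chromosome X. To the right of the dotted line, at a cumulus level 10 times the oocyte level, all DEGs are above 0, and to the left they lie on both sides.

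The other 23 DEGs that rose had a cumulus level under 10 times the oocyte level, and 17 of them had a higher level in oocytes than in cumulus cells. The smallest p among these was that of Tceanc, a gene of chromosome X with a domain of the elongation factor TFIIS. It stood at 24.5, 24.3, 23.1, 27.2 and 26.3 CPM at 14 months, all above the 16.2 to 18.8 CPM at 4 months (median 18), with a log2 fold change of 0.51 ± 0.07 (SE) and an adjusted p of 0.0027 (edgeR). Ube2d3, an abundant E2 ubiquitin-conjugating enzyme, stood at 1399, 1471, 1474, 1396 and 1425 CPM against 1173 to 1306 CPM (median 1252), a difference of 0.20 ± 0.03 (SE) on the log2 scale with no overlap and an adjusted p of 0.00466 (edgeR). Cyp39a1, an oxysterol hydroxylase, stood at 14.3, 16.5, 18.4, 15.1 and 18.3 CPM against 10.3 to 13.8 CPM (median 10.5), and had a log2 fold change of 0.57 with an adjusted p of 0.00922 (edgeR). Tlr3, the receptor for double-stranded RNA, rose from 8.7 to 12.9 CPM (log2 fold change 0.54, adjusted p 0.0461), with all mice at 14 months at or above 10.9 CPM and all at 4 months below that. Syde1 rose from 5.6 to 9.82 CPM (log2 fold change 0.77, adjusted p 0.0472), and mouse 14mo37 at 6.23 CPM overlapped the younger mice.

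Of the 68 DEGs, 11 lay on chromosome X, of which 10 rose and 1, Cldn34d, fell. These were 16.2% of the DEGs and 22.7% of those that rose, while 3.91% of the genes tested lay on chromosome X. This pattern was noticed after the values were seen and is given as a description. Reps2, which encodes an endocytosis protein, stood at 14.1, 16.3, 20.6, 17.6 and 14.9 CPM at 14 months, all above the 8.09 to 11.4 CPM at 4 months (log2 fold change 0.68 ± 0.11 (SE), adjusted p 0.0062). Nhs, the gene of Nance-Horan syndrome, stood at 44.6, 31.5, 36.9, 33.9 and 29.1 CPM, all above the 15.3 to 28.7 CPM at 4 months (log2 fold change 0.55, adjusted p 0.0365). Ogt, the single enzyme that adds O-GlcNAc to nuclear and cytoplasmic proteins, stood at 171.2, 165.5, 181.5, 203.3 and 199.1 CPM, all above the 134.9 to 162.5 CPM at 4 months, a small difference of 0.30 ± 0.04 (SE) on the log2 scale (adjusted p 0.00388).

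Xlr3b and Xlr3c, members of a family of lymphoid-regulated genes on chromosome X, also rose, and are named after their values were seen. Their upstream 250 bases (RefSeq, GRCm38.p6, chrX:73191929-73192178 on the plus strand and chrX:73265391-73265640 on the minus strand) are shown because the pair rose together and because they are near copies. Capitals mark the longest run found in both, of 119 bases, and 58.9% of the stretches of 20 bases were shared.
Xlr3b: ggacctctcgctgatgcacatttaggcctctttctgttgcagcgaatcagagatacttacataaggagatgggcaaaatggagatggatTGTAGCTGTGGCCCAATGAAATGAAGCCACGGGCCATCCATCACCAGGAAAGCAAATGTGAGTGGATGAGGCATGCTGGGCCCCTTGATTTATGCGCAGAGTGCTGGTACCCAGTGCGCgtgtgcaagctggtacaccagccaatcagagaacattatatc
Xlr3c: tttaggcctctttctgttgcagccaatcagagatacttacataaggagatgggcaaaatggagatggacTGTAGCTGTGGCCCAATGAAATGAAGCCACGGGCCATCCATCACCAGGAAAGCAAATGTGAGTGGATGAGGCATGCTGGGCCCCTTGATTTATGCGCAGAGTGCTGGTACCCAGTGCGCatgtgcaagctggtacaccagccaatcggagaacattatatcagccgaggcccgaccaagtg
Xlr3c stood at 42.6, 32.3, 45.1, 59.1 and 52.5 CPM at 14 months against 28.9 to 36.5 CPM at 4 months (log2 fold change 0.50, adjusted p 0.0178), and Xlr3b at 38.5, 33, 42.1, 51.5 and 51.3 CPM against 32.3 to 36.2 CPM (log2 fold change 0.38, adjusted p 0.0365). In both, mouse 14mo38 lay within the range of the younger mice and the other 4 above it. Counts of the pair were not whole in at least 98.2% of oocytes, so the split between the copies is uncertain.

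The 342 X-linked genes with a mean of at least 5 CPM had a median log2 fold change of 0.0573, against -0.0245 to 0.0257 for the 19 autosomes, and 26% of them had an unadjusted p under 0.05, against 14.4% of all 10687 genes of this level. Of these 342 genes, 75 rose and 14 fell at that unadjusted p. The median was 0.0425 on plate B1, 0.0653 on plate B2, 0.0664 with the cumulus marker level as a term and 0.0526 in the 211 X-linked genes with a higher level in oocytes than in cumulus cells. X-linked genes made up 2.77%, 2.88%, 2.88%, 2.91% and 2.84% of the CPM of the mice at 14 months and 2.72% to 2.84% at 4 months (median 2.73%), so the groups overlapped on this measure.

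**Figure D4:**
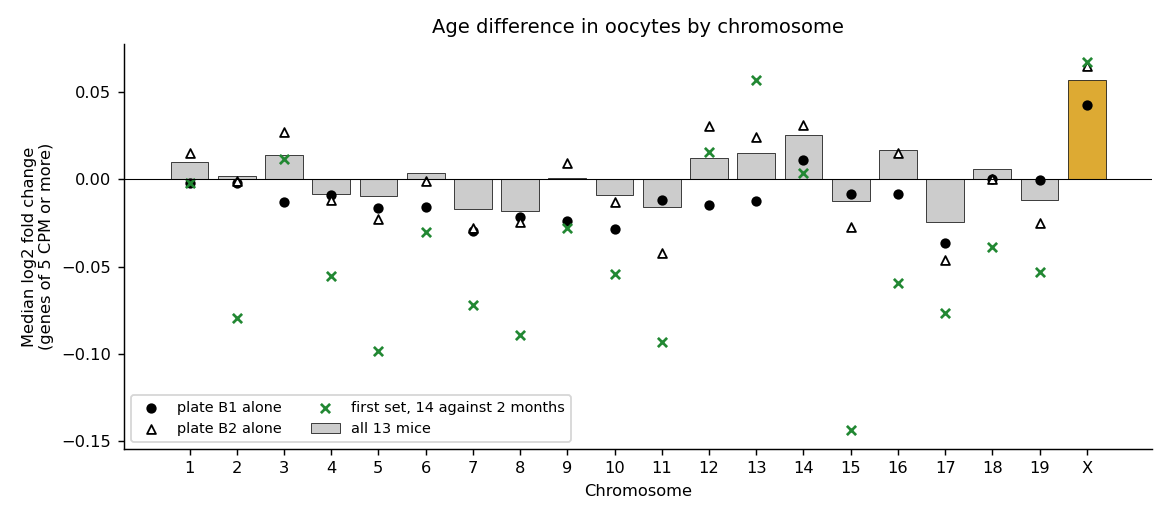
Median log2 fold change of 14 against 4 months in oocytes (y axis) for the genes of each chromosome (x axis) with a mean of at least 5 CPM, with bars for all 13 mice, circles and triangles for plates B1 and B2 alone and crosses for the first set. The bar of chromosome X at 0.0573 is the highest, above the 0.0257 of the highest autosome.

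Gene groups of interest in oocyte ageing held few or no DEGs. Over all genes tested 0.294% were called, so 0 in a list of this size says little about the list. An unadjusted p under 0.05 was met by 10.5% of all genes tested. Of 21 tested cohesin subunits and regulators 0 were called, 1 had an unadjusted p under 0.05 in each direction (9.52% of the list), and the median log2 fold change was 0.0251. Smc3, a core subunit, had means of 114.3 and 103.6 CPM (log2 fold change -0.14, unadjusted p 0.00725), and the acetyltransferase gene Esco2 had means of 270.8 and 302 CPM (0.15, unadjusted p 0.00825). The meiotic subunits Smc1b and Stag3 had log2 fold changes of 0.05 and 0.01, and Rec8 had too few counts to be tested. Of 18 genes of the spindle checkpoint and passenger complex 0 were called, with 2 higher and 2 lower at an unadjusted p under 0.05 (22.2%). Of 31 genes of kinetochore and centromere 0 were called, with 4 higher and 0 lower at that unadjusted p (12.9%).

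Of 17 oocyte identity genes 0 were called, and 1 was higher and 3 were lower at an unadjusted p under 0.05 (23.5%, against 10.5% of all genes tested). The median log2 fold change was -0.00385, and the growth factor genes Gdf9 and Bmp15 had means of 4783 and 4829 CPM and of 4415 and 4612 CPM at 4 and 14 months. Dppa3, Pou5f1 and Nfya had log2 fold changes of -0.09, -0.02 and -0.05 with adjusted p from 0.679 to 0.966 (edgeR). The early embryo needs the subcortical maternal complex for cleavage. Of 11 genes in a list of this complex and of other oocyte genes, 0 were called and 4 were lower at an unadjusted p under 0.05 (36.4%). Among them Ooep had means of 531.6 and 467.4 CPM (log2 fold change -0.19, unadjusted p 0.00132). The 13 mitochondrially encoded protein genes had a median log2 fold change of 0.136 with 0 called and 0 at an unadjusted p under 0.05, and their share of all counts was 0.127% ± 0.0125 (SD, n = 8) and 0.135% ± 0.0285 (SD, n = 5), a difference with p = 0.491 (two-sided exact permutation test).

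Of 67 core histone genes 1 was called (Hist1h3f), 10 genes, this one included, were lower at an unadjusted p under 0.05, 58 lay below 0 and the median log2 fold change was -0.182, while the median of the group in the first set of libraries, described below, was 1.04, in the opposite direction. Of 84 cytoplasmic ribosomal protein genes 0 were called, 23 were lower and 3 higher at an unadjusted p under 0.05, 71 lay below 0 and the median was -0.101, again against an opposite median of 0.58 in the first set. Over all genes tested the same unadjusted p was met by 4.59% in the lower and 5.95% in the higher direction. With the cumulus marker level of the mouse as a further term the medians were -0.0425 for core histones and -0.0607 for ribosomal proteins. Of 21 chaperone genes 1 was called, Hspa8, the constitutive cytosolic Hsp70, which fell from 536.8 to 450.5 CPM (log2 fold change -0.26, adjusted p 0.0451). Of these 21, 8 lay above and 13 below 0, and 1 was higher (Bag3, with a mean of only 0.191 CPM) and 5 lower at an unadjusted p under 0.05. Dnajb1, Hspa1a and Hspa1b had log2 fold changes of -0.23, -1.06 and -0.73 with adjusted p of 0.149 to 0.351.

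The DEGs that fell also included AY036118 and, named after their values were seen, Gm42418 and CT010467.1, which overlap at chr17:39846353-39848827, where ribosomal RNA repeat sequence is annotated as genes. They are 1 signal rather than 3. AY036118 stood at 1198, 1171, 1091, 1251 and 1319 CPM at 14 months against 1254 to 1540 CPM at 4 months (log2 fold change -0.24, adjusted p 0.00619), with mouse 14mo41 within the range of the younger mice.

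The first set of libraries, from other mice, allowed the DEGs to be followed in an independent comparison of 16 oocytes at 2 months and 16 at 14 months, with 2 mouse labels at each age as units. The paper counts more old mice than there are old labels, so the label Old1_2 appears to pool 2 mice, taken here as 1 unit. In that set 2561 of 27132 genes had an unadjusted p under 0.05 and 0 an adjusted p under 0.05 (edgeR). The paper, which tested single oocytes, reported many DEGs in both directions between these ages, so the 0 holds only for labels as units. The Sirpb1 genes were lower again, Sirpb1c at 2.23 and 1.4 CPM in the labels Old1_2 and Old3 against 6.61 and 8.18 CPM in Young1 and Young2, a log2 fold change of -1.99 ± 0.37 (SE, unadjusted p 8.64e-05). Nyap2 (-1.19), Map3k21 (-1.18), Irf8 (-0.96) and Cttnbp2 (-0.84) had the same direction with unadjusted p of 0.000482, 0.000962, 0.00329 and 0.00826. Hist1h3f had the opposite sign (1.18, unadjusted p 0.00453), as had Henmt1, Mlst8 and Hist1h1a (0.29, 0.16 and 0.37).

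Among the 14 DEGs lower at 14 months whose level was higher in oocytes than in cumulus cells, 11 had the same sign in the first set, and among the 17 higher ones 11 did. Of all genes with a higher level in oocytes than in cumulus cells 52.7% had the same sign in both sets. Of the 16 DEGs with a cumulus level 1 to 10 times the oocyte level 9 had the same sign, 6 of the 10 lower and 3 of the 6 higher ones, as had 50.6% of all genes of that kind. All 21 DEGs with a cumulus level at least 10 times the oocyte level had the same sign, as had 61.8% of all genes of that kind, counted in either direction. The median log2 fold change of all genes of that kind in the first set was 0.587, so a higher level at 14 months was common among them. Of the 21 DEGs, Ldha (1.10, unadjusted p 0.000707), Grem1 (1.47, unadjusted p 0.00414) and Hsd17b1 (0.89, unadjusted p 0.00552) had unadjusted p under 0.01. The X-linked DEGs did not keep together, since Tceanc (-0.38) and Nhs (-0.42) had the opposite sign, Ogt was at 0.04 and Reps2 at 0.24. Over the 342 X-linked genes the median in the first set was 0.0672, against -0.144 to 0.0571 for the autosomes. The phosphodiesterase gene Pde7b, a DEG named after its values were seen, had log2 fold changes of -2.84 in the second set and 1.35 in the first.

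**Figure D5:**
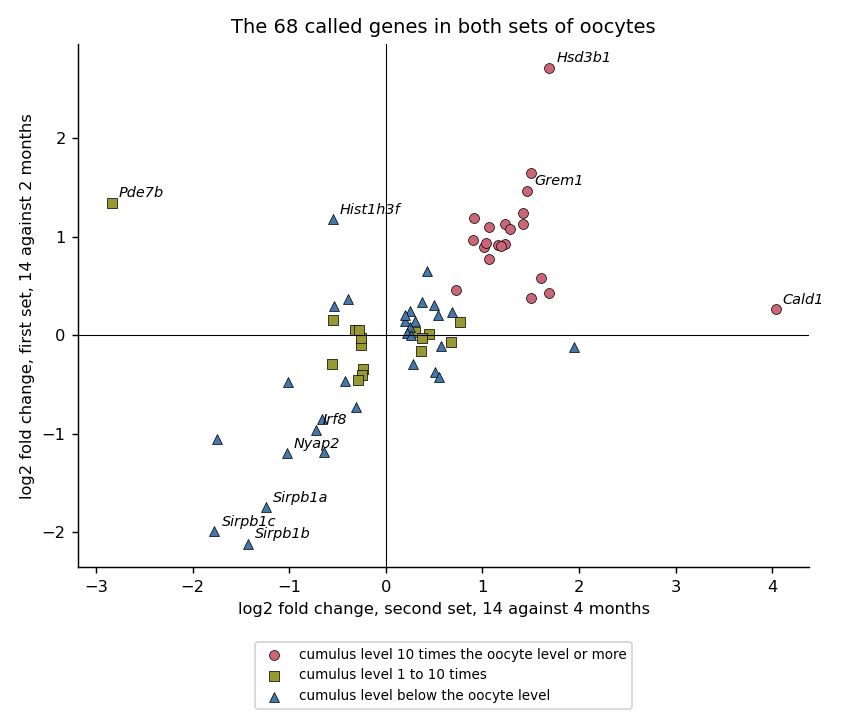
Log2 fold change of the 68 DEGs in the second set, 14 against 4 months (x axis), and in the first set, 14 against 2 months (y axis), each point a gene with its colour and shape by the ratio of cumulus to oocyte level. The Sirpb1 genes and Nyap2 lie at the lower left in both sets, and the 21 genes with the higher cumulus level lie above 0 in both. Cald1, named after its values were seen, at 4.03 in the second set, had a count in 1 of the 8 mice at 4 months, so its fitted value is no measure of its fold.

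At 9 months, the mean of 66 of the 68 DEGs lay between those at 4 and 14 months, and at 2 months 62 had a mean nearer to that at 4 than at 14 months. Over all 23094 genes tested these shares were 35.6% and 62%, and the DEGs were chosen for a wide gap between 4 and 14 months, so the counts are a description. As the levels at 2 and 9 months were normalized apart from those at 4 and 14 months, small gaps between them are uncertain. The mean at 9 months was nearer to that at 14 months for 12 of the 24 DEGs that fell, among them Sirpb1c and Irf8, and for 12 of the 44 that rose. Ldha and Inha had means of 10.7 and 11.7 CPM at 9 months, close to the 10.2 CPM of both at 4 months.

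In 40 cumulus libraries of the same mice at 4 months and 16 at 14 months, summed by mouse, 199 of 24254 genes were called (0.82%), from 42 without mouse 14mo40 to 713 without mouse 4mo29. Of the 60 oocyte DEGs that were tested there 1 was called, Pde7b, with a log2 fold change of -3.20. The difference between the cell types was not tested. Of the cumulus markers, the median log2 fold change in cumulus cells was 0.0794.

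Across the whole transcriptome, the difference between the ages on the main axis of variation was within the spread of the mice. PC1, with 6.47% of the variance of log10(RPKM + 1), differed by -0.565 between ages, where the SD of the mice at 4 months was 2.78 (p = 0.699, two-sided exact permutation test over 8 and 5 mice), and by 0.15 without mouse 4mo28. With a pseudocount of 0.1, which also changes the scale of the scores, it differed by -3.13 (exact permutation p = 0.0948). PC2 differed by 2.43 (exact permutation p = 0.0295, or 0.0886 adjusted over 3 components). The mean Euclidean distance between oocytes of the same mouse was 17.9 ± 0.957 (SD, n = 8) at 4 months and 16.4 ± 0.438 (SD, n = 5) at 14 months (exact permutation p = 0.00466), so oocytes of the same mouse were nearer to each other at 14 months. When each oocyte was drawn down to the smallest library total, the difference was -0.5085 with an exact permutation p of 0.121.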

How the data were processed

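RNA of single oocytes was measured by RamDA-seq at 4 and 14 months in the second set of libraries. Per the labels and the methods of the study, trimmed reads were aligned by the authors to GRCm38 (HISAT2 2.0.5) and assigned to the genes of GENCODE vM15 by featureCounts 1.5.1. The deposited values were treated as estimated counts, since 36.7% of those above 0 in the 55 oocytes were not whole: reads that map to several places were shared between genes, which makes the split among near copies uncertain. The authors also calculated and deposited RPKM values, which were recomputed from counts and gene length with a match of 100% within 0.1%. The table held 42349 genes, of which 42230 had a symbol and coordinates in GENCODE vM21 (GRCm38).

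Counts of the oocytes of each mouse (2 to 8) were summed and rounded. Genes detected in 5 or more of the 55 oocytes entered edgeR 4.0.16, run in R 4.3.3 (quasi-likelihood F test after TMM normalization, age and plate as terms, Benjamini-Hochberg adjusted p under 0.05 over all genes). The study tested single oocytes, which is an alternative here. The coefficient of variation between mice beyond counting was 7.54%. Whether mice of an age shared a litter is not given in the sources used here. Data were simulated for this comparison over 23094 genes, with changes placed only in genes of at least 5 CPM and with no effect of plate. The test recovered 60 of 67 genes changed 1.5-fold, 66 of 67 changed 2-fold and 66 of 66 changed 4-fold, with 21 false calls. As a share of all calls, these false calls were above the 0.05 that the adjusted p aims at. The recovery of genes under 5 CPM was not simulated. Scores were compared by exact two-sided permutation over the 13 mice (1287 relabellings, smallest possible p 0.000777). The highest correlation between a pair of oocytes was 0.981, so no library was a copy of another. Principal components used log10(RPKM + 1) of the same genes, and distances those of genes with a mean of at least 1 RPKM.

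The 15 cumulus markers, the other lists of genes, the members and the rules for naming genes were chosen with earlier results of these data known. Named were the 12 largest increases and decreases and the 10 smallest p among DEGs of at least 5 CPM with a gene symbol other than a Gm or Rik number, up to 4 genes of smallest p in a list of genes (any member of the cohesin, oocyte identity and mitochondrially encoded lists), and Dppa3, Pou5f1, Nfya and Rec8. Other genes named are said to be named after their values were seen, besides Slc38a3, Amh, Jund and Bag3, which were also chosen then to show both directions of a list. A list is described by its counts and median, without a test. Upstream sequences came from RefSeq (GRCm38.p6). Alternatives were single oocytes, limma 3.58.1 with voom and mouse as a random block, DESeq2 1.42.0 and its size factors, no plate term, each plate alone, the cumulus marker level as a term, the removal of a trend with gene length, mitochondrially encoded genes left out, edgeR's filterByExpr, no filter, all ages in a joint fit, and each mouse left out.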

Additional observations from a re-analysis of the deposited data

Results flagged for a closer look

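Of 74 groups of mouse values screened for a value far from the rest (Dixon's criterion at 95%), 3 were flagged, all at 4 months, where chance flags about 1 group in 20. The highest of the 8 mice at 4 months stood at 13.82 CPM for Cyp39a1, below all 5 mice at 14 months. The highest mouse at 4 months stood at 18.78 CPM for Cttnbp2, farther from the older mice than the others. The lowest mouse at 4 months stood at 11.92 CPM for Commd10, within the range at 14 months.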

How the results depend on the processing

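No paired analysis was possible because the mouse numbers differ between the ages. Against 68 DEGs in oocytes, 181 were called with single oocytes as units, 150 with limma-voom and mouse as a random block, 202 with DESeq2, 125 without a filter, 32 without the plate term, 41 on plate B1 alone, 0 on plate B2 alone and 0 with the cumulus marker level as a term (1616 at an unadjusted p under 0.05), and from 25 to 69 with 1 mouse left out. With all ages in 1 fit 47 were called, 19 higher and 28 lower, and without mouse 14mo41 36 higher and 33 lower, against 44 and 24. In cumulus cells, 119 genes were called without the plate term, and from 42 to 713 with 1 mouse left out, against 199. The number was more than 1.5 times smaller without 14mo37 (64), 14mo38 (103), 14mo39 (98), 14mo41 (44), 4mo25 (98), 4mo28 (129), 4mo4 (118) or 4mo5 (77). The smaller distance between oocytes of a mouse at 14 months was -0.5085 with an exact permutation p of 0.121 at equal library totals, and -1.67 to -1.2 with 1 mouse left out. The rise of the cumulus marker level kept its direction and call under all 15 alternatives run, from 0.188 to 0.257 percentage points with 1 mouse left out. Differences that were not called turned sign for the mitochondrially encoded share without mouse 14mo41 (-0.00179 percentage points, against up to 0.0176 without another mouse) and for PC1 without mouse 4mo28 (0.15, against down to -0.965 without another mouse), and PC1 differed by -3.13 with a pseudocount of 0.1. The log2 fold change of Pou5f1 turned to 0.00045 with single oocytes, 0.00464 with limma-voom, 0.0308 with the cumulus marker level as a term, 0.113 on plate B2 alone and 0.00297 without mouse 4mo3, and was down to -0.078 without another mouse. That of Scd2 turned to -0.017 with the cumulus marker level as a term. The median of the 15 cumulus markers was 0.23 with limma-voom, 0.212 on plate B2 alone and 0.0151 with the cumulus marker level, their own sum, as a term, and that of core histones -0.0425 with this term. The causes of these shifts were not tested. The medians of chromosome X and of ribosomal proteins kept their sign under all 26 alternatives run. With library totals from 1238441 counts and 2 to 8 oocytes per mouse, genes under 1 CPM rest on few counts.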

Other observations

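The lists of other processes given here held 0 DEGs, where 0.294% of all genes tested were called. Of 28 tested antioxidant genes 0 were called, 3 were higher and 2 lower at an unadjusted p under 0.05, and the heme oxygenase gene Hmox1 had means of 0.877 and 1.68 CPM (adjusted p 0.105, edgeR). Of 18 genes of the ER and integrated stress response 0 were called, and Atf4, the main transcription factor of that response, had means of 140.4 and 166 CPM (log2 fold change 0.23, unadjusted p 0.00418). Of 46 DNA repair genes 0 were called, 1 was higher and 2 were lower at an unadjusted p under 0.05, and the damage kinase gene Atm had means of 14.1 and 17.4 CPM (log2 fold change 0.30, unadjusted p 0.0075).

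Of 30 genes of maternal mRNA storage, translation and decay 0 were called, 4 were higher and 3 lower at an unadjusted p under 0.05. Ago2, the slicer of small RNA pathways, had means of 59.6 and 69.9 CPM, and Lsm14b, an RNA storage protein of oocytes, had means of 834.8 and 767.6 CPM. Of 26 genes of meiotic arrest and resumption 0 were called, and Ccnb3 and Mos had log2 fold changes of 0.20 and -0.10. Of 24 genes of the spindle and actin machinery 0 were called, and Actb and Prc1 had log2 fold changes of 0.16 and 0.13 (unadjusted p 0.00133 and 0.00494). Of 22 genes of DNA methylation and heterochromatin, 27 of the sirtuin and mTOR pathways, 30 of autophagy and lysosome, 22 tested genes of cell cycle inhibition and apoptosis, 37 proteasome subunits, 77 nuclear-encoded respiratory chain subunits and 78 mitochondrial ribosomal proteins, 0 were called, with medians from -0.0685 to -0.00376 on the log2 scale. For comparison, 10.5% of all genes tested had an unadjusted p under 0.05, and 3.33% to 13.6% of the genes did in each of the lists from DNA methylation to mitochondrial ribosomal proteins. The share was higher for maternal mRNA storage, translation and decay (23.3%), spindle and actin (20.8%), antioxidant genes (17.9%) and meiotic arrest and resumption (15.4%). It was 11.1% for the ER and integrated stress response and 6.52% for DNA repair.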
